A study of Mus musculus with 2207 samples.

Results

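The AMPA and NMDA receptor subunits described here are the products of 10 genes, Gria1 to Gria4, Grin1, Grin2a to Grin2d and Grin3a. They were chosen by gene symbol and not by a rule on measured values, though with earlier results of these data known. All 10 were found among the 52636 gene rows that both expression tables share. Their levels were read in 2207 single nuclei from the mouse cerebral cortex, each profiled by RamDA-seq, a full-length total RNA method with random priming. The labels of the study call 1664 of these nuclei neurons and 397 oligodendrocytes, and the rest (16 to 36 per pool) microglia. Neurons with more Slc17a7, the vesicular glutamate transporter, than Gad1, a GABA-synthesizing enzyme, were taken as excitatory (1324 nuclei), and those with more Gad1 as inhibitory (43 to 73 nuclei per pool). The remaining 7 neurons expressed the pair equally or not at all.

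The study asked whether restoring GLP, the histone H3 lysine 9 methyltransferase encoded by Ehmt1, after birth changes the brain of mice that lack 1 Ehmt1 allele (Ehmt1Δ/+), a model of Kleefstra syndrome. All mice were C57BL/6, were treated 2 times with tamoxifen (100 mg/kg), a week apart from 3 weeks of age on, and were 14 weeks old at sampling. Nuclei formed 6 pools, each from 3 mice of 1 genotype. A wild-type (WT) and an Ehmt1Δ/+ pool were made in 96-well plates. In 384-well plates there were 4 pools, and all carried Ehmt1 iTg, a Rosa26 transgene that produces FLAG-tagged GLP after Cre recombination. These were a WT pool (Ehmt1+/+ with Ehmt1 iTg and without CamKII-CreER), an Ehmt1Δ/+ pool (with Ehmt1 iTg and without CamKII-CreER), an iTg CreER pool (Ehmt1+/+ with Ehmt1 iTg and CamKII-CreER) and a Δ/+ iTg CreER pool (Ehmt1Δ/+ with both transgenes). These genotypes follow the labels, whereas the figure legends of the study describe every genotype of this series as with CamKII-CreER, so the assignment of CamKII-CreER is uncertain. CamKII-CreER acts in forebrain excitatory neurons, so inhibitory neurons and glia are not its intended target. The labels do not say which mouse a nucleus came from, so every test was made over pools, and p-values measure the spread between pools.

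AMPA receptors carry most of the fast excitatory current at brain synapses and are assembled from the subunits GluA1 to GluA4, encoded by Gria1 to Gria4. NMDA receptors open when glutamate binds and the membrane is depolarized, and they admit the calcium that starts many forms of synaptic plasticity. Every NMDA receptor contains GluN1, the product of Grin1, together with GluN2 subunits from Grin2a to Grin2d or the GluN3A subunit from Grin3a, and the partner subunit sets the channel's kinetics and its block by magnesium.

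The genes lie apart in the genome (mm10, GENCODE M21). Gria1 is at chr11:57011387-57330244, Gria2 at chr3:80681450-80802835, Gria3 at chrX:41400854-41678601 and Gria4 at chr9:4417896-4796234. Grin1 is at chr2:25291181-25319187, 371.567 kb from Ehmt1. Grin2a is at chr16:9567898-9995560, Grin2b at chr6:135713233-136173511, Grin2c at chr11:115249169-115267243, Grin2d at chr7:45831883-45878378 and Grin3a at chr4:49661611-49845744. Reads were counted over exons without regard to strand, so the values of genes that overlap others are less certain. Grin1 overlaps the antisense RNA Grin1os, Grin2d overlaps Kdelr1 and Gm45441 on the other strand, Grin2b overlaps Gm14330, Gm26653 and Gm14329, and Ppp3r2 lies within Grin3a on the same strand.

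The 250 bases upstream of the annotated start are shown for the 4 members whose matched promoter sequence began at the start of the gene used for the level. They were not chosen by their levels, and no link between sequence and level was tested. Gria2 and Grin1 were the most abundant members in excitatory neurons. Gria4 and Grin2c were called higher in the Pvalb class of inhibitory neurons, calls that were each lost in 4 of 6 runs without single pools (given below). The sequences are from RefSeq (GRCm38.p6), written 5′ to 3′ on the gene's strand, with every GC box (GGGCGG or CCGCCC, the core of the Sp1 motif, searched on both strands) in capitals. All 4 genes are on the minus strand. The windows are chr3:80802836-80803085 for Gria2, chr2:25319188-25319437 for Grin1, chr9:4796235-4796484 for Gria4 and chr11:115267244-115267493 for Grin2c.
Gria2: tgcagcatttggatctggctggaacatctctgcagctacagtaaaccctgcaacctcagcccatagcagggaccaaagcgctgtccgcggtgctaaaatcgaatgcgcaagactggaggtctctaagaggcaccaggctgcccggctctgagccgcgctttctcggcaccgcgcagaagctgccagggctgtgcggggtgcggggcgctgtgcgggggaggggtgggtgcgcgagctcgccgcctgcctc
Grin1: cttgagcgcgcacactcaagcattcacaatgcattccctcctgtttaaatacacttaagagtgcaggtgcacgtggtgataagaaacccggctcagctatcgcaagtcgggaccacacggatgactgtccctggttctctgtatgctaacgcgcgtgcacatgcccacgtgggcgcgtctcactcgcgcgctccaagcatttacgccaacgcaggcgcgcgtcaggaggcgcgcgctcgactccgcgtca
Gria4: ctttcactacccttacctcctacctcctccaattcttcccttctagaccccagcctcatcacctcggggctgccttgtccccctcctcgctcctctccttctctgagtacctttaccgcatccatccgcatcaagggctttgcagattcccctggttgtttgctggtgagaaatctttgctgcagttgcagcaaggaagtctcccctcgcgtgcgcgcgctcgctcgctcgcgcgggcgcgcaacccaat
Grin2c: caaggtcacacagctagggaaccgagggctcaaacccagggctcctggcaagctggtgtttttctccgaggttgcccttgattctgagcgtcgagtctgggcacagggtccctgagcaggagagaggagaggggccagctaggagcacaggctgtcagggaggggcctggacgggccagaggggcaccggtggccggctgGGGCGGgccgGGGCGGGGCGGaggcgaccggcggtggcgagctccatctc
The Gria2, Grin1 and Gria4 windows held 0 GC boxes. The Grin2c window held 3, the last of them overlapping its neighbour. Of 32851 promoter windows of the same length, 32.7% held a GC box and 8.47% held 3 or more. G and C made up 68.8% of the bases for Grin2c, 64.8% for Gria2, 58.8% for Grin1 and 58.8% for Gria4, against a median of 52.4% over all windows. Promoter sequences were matched for 5 of the 10 members, and that of Grin2d began 11697 bases from the start of the gene used for its level and is not shown.

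Neuronal nuclei had a median of 323273 to 397880 reads per pool, estimated from the steps of the expression values, while glial nuclei had 441701 to 510639 in 96-well plates and 39940 to 54877 in 384-well plates. Levels are reads per kilobase of exon and by library size (RPKM), which allows genes to be compared. Slc17a7 (117.6 RPKM in excitatory and 1.26 in inhibitory neurons) and Gad1 (0.751 and 61.9) defined the classes. Slc32a1, the vesicular GABA transporter gene, which did not define them, was 0.214 and 35.9 RPKM. Neuronal Ehmt1 RNA went against the label, with 31.2, 31.7 and 33.9 RPKM in the 3 pools labelled Ehmt1Δ/+ and 18.7 to 20.7 in the others. A value for the whole gene does not check the deleted part. Among libraries that stood apart, the 96-well WT pool had the most inhibitory marker RNA in its excitatory neurons (Gad1, Gad2 and Slc32a1, all detected, summing to 4.38 RPKM against 0.530 to 1.49 in the other pools and 128.3 to 167.1 in inhibitory neurons). In the 96-well Ehmt1Δ/+ pool, 2 of 43 inhibitory nuclei had more Pdgfra and Cspg4, markers of oligodendrocyte precursors, than Gad1, against 0 in every other pool. Together with Vcan and Ptprz1 these markers summed to 9.21 to 65.3 RPKM in inhibitory and 1.33 to 2.99 in excitatory neurons and were higher in inhibitory neurons in 6 of 6 pools. Outside the 96-well Ehmt1Δ/+ pool Pdgfra was at 0.0574 to 0.184 RPKM and Cspg4 at 0 to 0.174 in inhibitory neurons. The part of these markers in the class differences was not tested, and the class comparison without either pool is given below.

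Excitatory and inhibitory neurons held the receptor genes at different levels. All 10 members passed the test between the classes, 5 higher in excitatory neurons (Gria2, Gria3, Grin1, Grin2a and Grin2b) and 5 higher in inhibitory neurons (Gria1, Gria4, Grin2c, Grin2d and Grin3a). Of all 25588 genes tested, 40.5% passed, 19.2% higher and 21.3% lower in excitatory neurons, so a call alone is common, and the sizes carry the comparison. The median log2 difference was -0.05 over the members and -0.02 over all genes. The test was limma on log2(RPKM + 0.1) of the 6 pool means per class with the pool as a block and Benjamini-Hochberg adjustment over all genes.

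**Figure D1:**
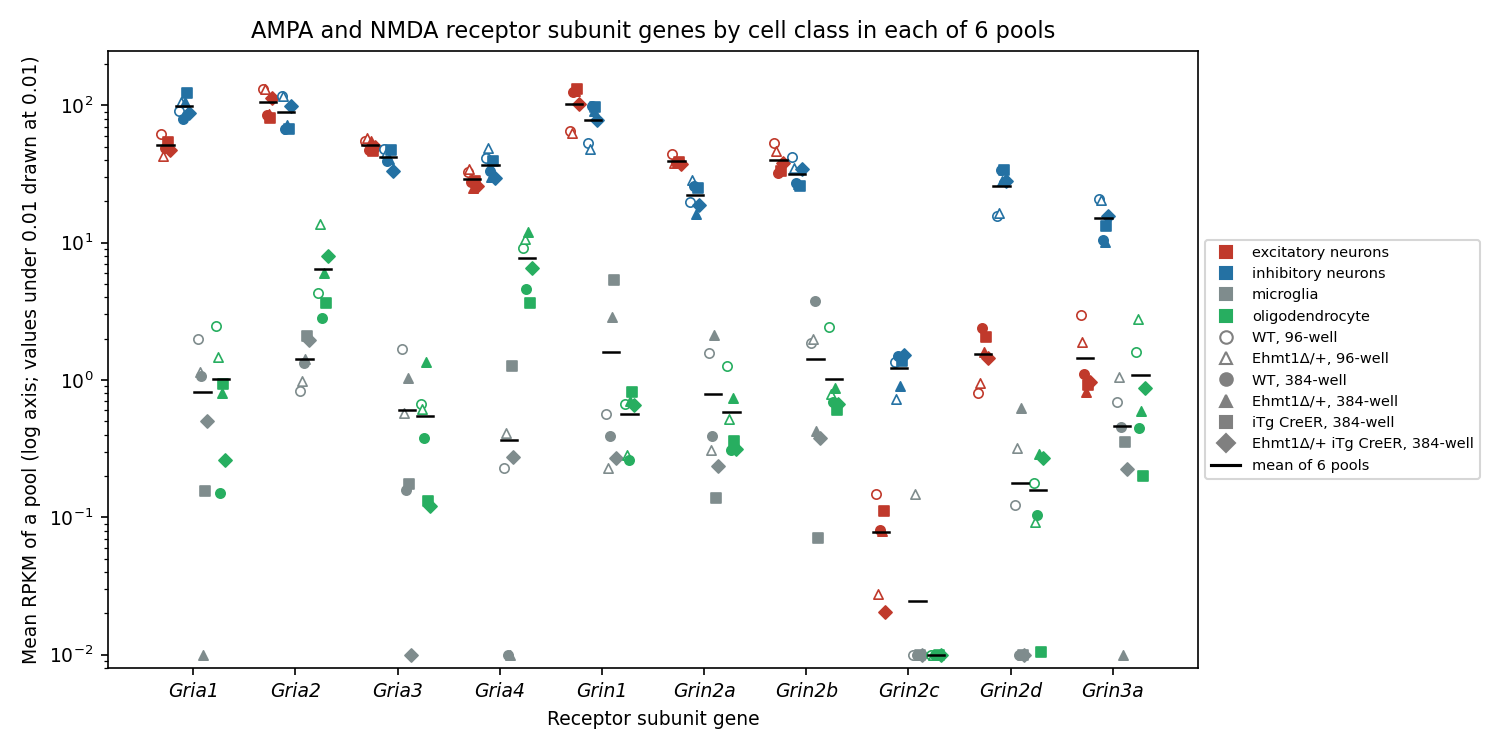
Mean RPKM (log axis) of each subunit gene in excitatory neurons, inhibitory neurons, microglia and oligodendrocytes, with 1 point per pool, open symbols for 96-well plates, filled symbols for 384-well plates and black bars for the mean of 6 pools. Inhibitory points lie above all excitatory points for Gria1, Grin2c, Grin2d and Grin3a, and excitatory points lie above all inhibitory points for Grin2a.

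Gria1, encoding the subunit whose traffic to synapses is best known from long-term potentiation, was the AMPA gene most unequal between the classes. Its pool means were 42.9 RPKM at the lowest, 50.7 at the median and 62.1 at the highest in excitatory neurons, and 79.5, 98.4 and 123.99 in inhibitory neurons. The ranges did not overlap, and Gria1 was lower in excitatory neurons in 6 of 6 pools, by 0.94 on the log2 scale (SE 0.11, a ratio of 1.92, adjusted p = 0.000725 by limma). Gria4, whose subunit gives fast channel gating, was also lower in excitatory neurons in 6 of 6 pools, with 25.2 to 34.4 RPKM (median 27.8) against 29.4 to 49.1 (median 36.1). The ranges overlapped and the log2 difference was -0.34 (SE 0.07, adjusted p = 0.00998 by limma).

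Gria2, encoding the subunit that makes AMPA receptors impermeable to calcium when its transcript is edited, was higher in excitatory neurons within each of 6 pools. Its range was 80.8 to 132.5 RPKM (median 99.9) in excitatory and 67.1 to 117.03 (median 85.4) in inhibitory neurons, so the ranges overlapped between pools while the within-pool differences had 1 sign. The log2 difference was 0.24 (SE 0.06, a ratio of 1.18, adjusted p = 0.0197 by limma). Gria3 had 46.3 to 58.3 RPKM (median 52.3) in excitatory and 33.04 to 47.8 (median 42.6) in inhibitory neurons and was higher in 5 of 6 pools, the exception being the iTg CreER pool. Its log2 difference of 0.31 (SE 0.09, adjusted p = 0.0363 by limma) was the least secure of the 10, and the adjusted p was up to 0.0868 when single pools were left out.

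Grin1, the obligatory NMDA subunit gene, had 63.1 to 131.5 RPKM (median 113.8) in excitatory neurons and 48.04 to 98.8 (median 84.5) in inhibitory neurons. The log2 difference was 0.38 (SE 0.06, adjusted p = 0.00259 by limma), with excitatory neurons higher in 6 of 6 pools. Grin2a, encoding the GluN2A subunit that predominates at mature synapses, had 37.4, 38.6 and 44.6 RPKM (lowest, median and highest pool) in excitatory neurons and 16.2, 22.4 and 28.5 in inhibitory neurons. Its ranges did not overlap, and the log2 difference was 0.84 (SE 0.13, a ratio of 1.79, adjusted p = 0.00236 by limma). Grin2b, whose GluN2B subunit is the main partner early in development, differed less, with 32.3 to 53.5 RPKM against 26.03 to 42.04 and a log2 difference of 0.32 (SE 0.07, adjusted p = 0.00826 by limma).

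The largest differences were in the NMDA subunit genes known from interneurons. Grin2d, encoding the slowly deactivating GluN2D, had 0.800, 1.53 and 2.38 RPKM (lowest, median and highest pool) in excitatory neurons and 15.6, 28.3 and 33.9 in inhibitory neurons. All inhibitory pools lay above all excitatory pools, and the log2 difference was -4.02 (SE 0.08, a ratio of 16.2, adjusted p = 1.55e-06 by limma). Grin3a, whose GluN3A subunit lowers calcium permeability, had 0.820, 1.036 and 2.98 RPKM against 10.1, 14.5 and 20.9. Its difference on the log2 scale was -3.39 (SE 0.15, adjusted p = 1.31e-05 by limma). Grin2c was low everywhere, with 0.0206 to 0.147 RPKM in excitatory and 0.727 to 1.53 in inhibitory neurons, and it was detected in 2.27% to 4.71% and in 7.55% to 14.0% of nuclei. It passed the filter on low values only through the inhibitory class, in which it is higher, so its call (log2 difference -2.90, SE 0.18, adjusted p = 3.79e-05 by limma) and its place in the count of 10 rest on that. A median of 3 reads stood behind each of the 81 nuclei in which it was above 0.

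The exact two-sided permutation test over the 6 pools, which flips the sign of each pool's difference, gave p = 0.03125 for 9 members (0.0347 adjusted over the 10), the smallest p that 6 pools allow. Gria3 gave 0.0625. Without the 96-well Ehmt1Δ/+ pool 9 of the 10 members passed limma's test, Gria3 being lost, and without the 96-well WT pool 8 passed, Gria3 being lost and Grin2c falling below the filter. Leaving out single pools left between 7 and 10 members. Gria3 was lost in 5 of the 6 runs, Gria2 without the 384-well WT pool (adjusted p = 0.0600 by limma), and Grin2c gave values in 3 of the 6 runs and fell below the filter in the rest. In the 384-well pools alone the calls of Gria2, Gria3, Gria4 and Grin2b were lost, and in the 96-well pools alone, with 2 pools per class, all calls were. The level of several members also moved with plate format, which is confounded with the iTg transgene. In excitatory neurons the 96-well pools were at 63.1 to 64.7 RPKM for Grin1 and the 384-well pools at 101.7 to 131.5. For Gria2 these ranges were 132.3 to 132.5 and 80.8 to 113.9, and for Grin3a 1.897 to 2.98 and 0.820 to 1.11. Plate format and transgene cannot be told apart, and tests between classes were made within pools.

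Because RPKM is scaled by length, the makeup of each family can be compared. In excitatory neurons Gria2 supplied 43.9% ± 4.80 (SD, n = 6 pools) of the summed Gria1 to Gria4 RPKM, Gria3 21.99% ± 1.87, Gria1 21.9% ± 3.51 and Gria4 12.3% ± 1.021. In inhibitory neurons the mean shares were 37.2% ± 5.43 for Gria1, 33.3% ± 6.28 for Gria2, 15.8% ± 1.78 for Gria3 and 13.8% ± 1.54 for Gria4. Gria1 was above Gria2 in 3 of 6 pools only (exact permutation p = 0.4375 for their levels). The Gria1 share was 15.3 percentage points smaller in excitatory neurons, while the Gria2 share was 10.6 points larger. Among the GluN2 genes, Grin2a and Grin2b supplied 48.98% ± 3.52 and 48.9% ± 4.45 in excitatory neurons, and Grin2d 1.99% ± 0.939. In inhibitory neurons the mean shares were 39.3% ± 8.73 for Grin2b, 31.9% ± 9.36 for Grin2d and 27.3% ± 4.97 for Grin2a. The order of these means does not hold in each plate format. Inhibitory Grin2d was 15.6 to 16.4 RPKM in the 96-well pools, below Grin2b (34.7 to 42.04) and Grin2a (19.9 to 28.5). In the 384-well pools Grin2d was 28.3 to 33.9 RPKM, Grin2b 26.03 to 34.4 and Grin2a 16.2 to 25.9. The Grin2d share differed by -29.9 points and the Grin2a share by 21.6 points (excitatory minus inhibitory). Each of the 8 shares differed in the same direction in 6 of 6 pools (exact two-sided permutation p = 0.03125 for each, 0.03125 after adjustment over the 8), also when only nuclei with one class marker at least 4 times the other were used. The shares of a family add up to the whole, so these tests are not independent of each other.

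**Figure D2:**
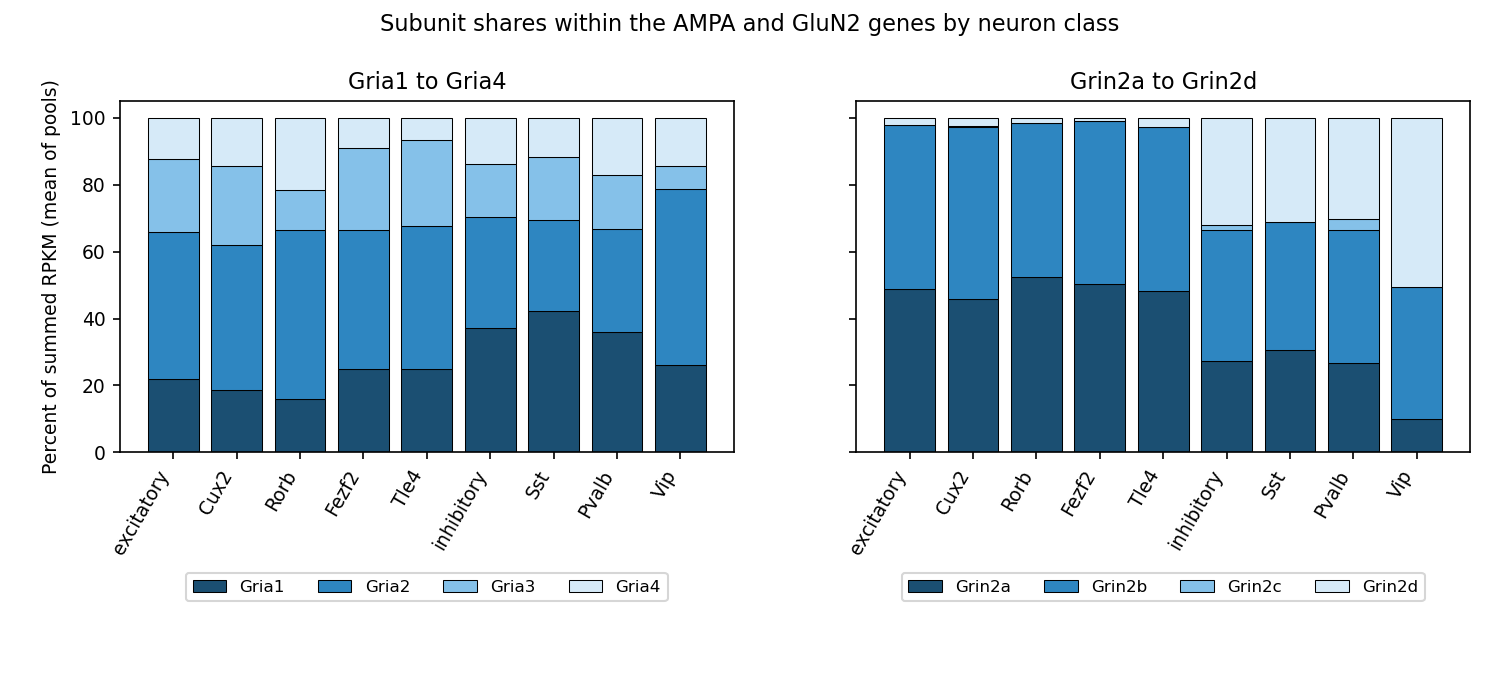
Stacked bars of the mean over pools of each gene's percent of the summed RPKM of Gria1 to Gria4 (left) and of Grin2a to Grin2d (right), in excitatory neurons and their 4 marker classes and in inhibitory neurons and their 3 marker classes. Grin2d makes up 1.99% of the GluN2 genes in excitatory and 31.9% in inhibitory neurons, and Gria4 is largest among excitatory classes in the Rorb class.

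Ordered by level, the excitatory neurons had Gria2 (105.1 ± 24.2 RPKM, SD, n = 6 pools), Grin1 (102.2 ± 31.4), Gria3 (51.8 ± 4.77), Gria1 (51.3 ± 6.61), Grin2b (39.9 ± 8.37), Grin2a (39.4 ± 2.596), Gria4 (29.01 ± 3.82), Grin2d (1.54 ± 0.613), Grin3a (1.45 ± 0.844) and Grin2c (0.0778 ± 0.0485). Of the 9 neighbouring pairs, Gria2 with Grin1, Gria3 with Gria1, Grin2b with Grin2a, and Grin2d with Grin3a held no single direction over the pools (3 or 4 of 6 pools in 1 direction, exact permutation p from 0.812 to 1). This does not make them alike, since some moved with plate format. In the 96-well pools Gria2 was 132.3 to 132.5 RPKM and Grin1 63.1 to 64.7. In the 384-well pools they were 80.8 to 113.9 and 101.7 to 131.5. Grin3a was above Grin2d in the 96-well pools (1.897 to 2.98 against 0.800 to 0.948 RPKM). It was below Grin2d in the 384-well pools (0.820 to 1.11 against 1.44 to 2.38). Gria1 was above Grin2b in 5 of 6 pools (exact permutation p = 0.0625). The other 4 steps held in 6 of 6 pools, each with the smallest exact permutation p of 0.03125 and 0.0703 after adjustment over the 9 pairs. The order in inhibitory neurons was Gria1 (99.001 ± 15.98), Gria2 (89.8 ± 24.02), Grin1 (77.8 ± 22.4), Gria3 (42.1 ± 5.56), Gria4 (37.002 ± 7.65), Grin2b (31.8 ± 6.37), Grin2d (26.1 ± 8.22), Grin2a (22.4 ± 4.78), Grin3a (15.1 ± 4.74) and Grin2c (1.23 ± 0.333). There the steps from Grin1 to Gria3 and from Grin3a to Grin2c held in 6 of 6 pools (exact permutation p = 0.03125, 0.141 after adjustment), and the other 7 held in 3 to 5 pools.

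Excitatory nuclei were then divided by whichever of Cux2, Rorb, Fezf2 and Tle4, transcription factor genes that mark upper, middle and deep cortical layers, was highest after scaling to its mean. Classes held 43 to 90, 44 to 62, 39 to 52 and 41 to 73 nuclei per pool. Rorb was 22.1 RPKM in its class and 0.370 to 3.32 in the others, whereas Cux2 was 51.5 in the Cux2 class and still 31 in the Rorb class. Of the 9 members that passed the filter, 6 were called in the Rorb class against the mean of the other 3, 1 higher and 5 lower (background 23.2% of 26402 genes, 11.1% higher and 12.1% lower), 5 in the Tle4 class (background 18.5%), 5 in the Fezf2 class (background 16.3%) and 2 in the Cux2 class (background 15%). These 4 contrasts use the same pool values and are not independent of each other. Grin2c was below the filter and was not tested.

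The AMPA genes moved apart across these classes. Gria3 in the Rorb class ranged from 20.7 RPKM to 28.4 (median 22.3), below every pool of the Cux2 class (45.05 to 57.4, median 54.2), the Fezf2 class (52.5 to 75.4, median 61.5) and the Tle4 class (57.2 to 85.3, median 65.4). The log2 difference of the Rorb class from the others was -1.36 (SE 0.07, a ratio of 2.57, adjusted p = 1.8e-09 by limma). Gria1 in the Rorb class was 31.8 ± 7.82 RPKM (SD, n = 6 pools) against 63.4 ± 11.5 in the Fezf2 and 65.3 ± 12.4 in the Tle4 class. Its Rorb difference was -0.82 on the log2 scale (SE 0.10, adjusted p = 1.18e-05 by limma), and its Fezf2 and Tle4 differences were 0.52 and 0.58. Gria4 went the other way, with 38.1 to 46.6 RPKM (median 42.7) in the Rorb class, 25.6 to 42.7 (median 31.3) in the Cux2 class, 19.1 to 29.4 (median 21.5) in the Fezf2 class and 14.9 to 23.4 (median 16.1) in the Tle4 class. All Rorb pools lay above all Fezf2 and all Tle4 pools. Gria4 differed by 0.87 on the log2 scale in the Rorb class (SE 0.08, adjusted p = 7.35e-07 by limma) and -0.88 in the Tle4 class (adjusted p = 9.73e-07 by limma).

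**Figure D3:**
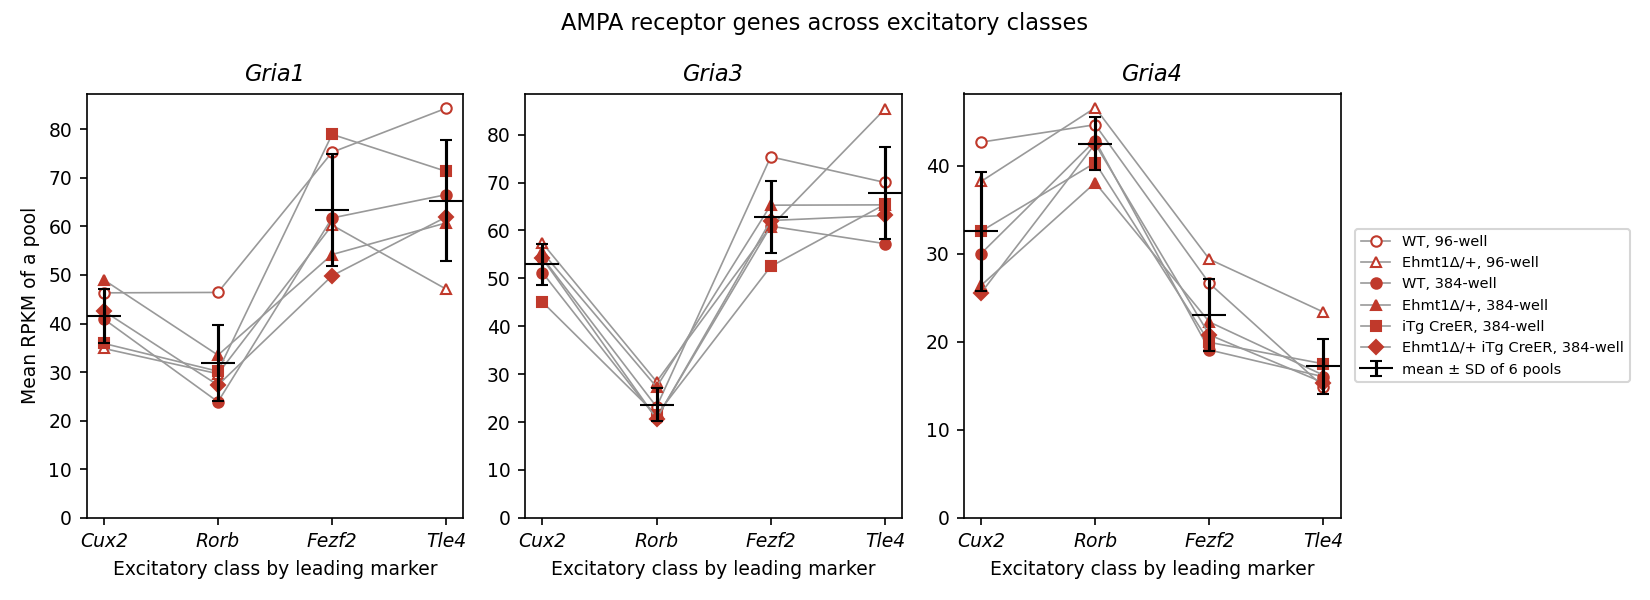
Pool means in RPKM of Gria1, Gria3 and Gria4 in the 4 excitatory classes, with lines joining the classes of 1 pool, open symbols for 96-well plates, filled symbols for 384-well plates and black bars for mean ± SD of 6 pools. Gria3 is lowest in the Rorb class in every pool, and Gria4 is highest there in every pool.

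As a share of the AMPA genes, Gria4 rose from 6.56% ± 1.13 in the Tle4 class to 21.6% ± 2.45 in the Rorb class, where Gria2 supplied 50.4% ± 4.13, Gria1 15.97% ± 2.85 and Gria3 11.99% ± 1.80 (SD, n = 6 pools, given as a description). Gria2 itself was near level, from 99.02 RPKM in the Cux2 class to 114.9 in the Tle4 class, with a call in the Tle4 class alone (log2 difference 0.16, SE 0.04, adjusted p = 0.0142 by limma) that was lost without the 96-well WT pool or without the 384-well Ehmt1Δ/+ pool.

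Among NMDA genes, Grin1 and Grin2a were called in none of the 4 classes. Their means ran from 99.9 to 107.7 RPKM and from 37.1 to 40.99 RPKM, and their log2 differences lay between -0.05 and 0.09 and between -0.11 and 0.09. Grin2b was lower in the Rorb class (34.9 against 40.6 to 42.1 RPKM, log2 difference -0.25, SE 0.05, adjusted p = 0.00169 by limma). Grin3a was lower in the Rorb class (log2 difference -0.64, SE 0.16, adjusted p = 0.00709 by limma) and higher in the Fezf2 class (0.61, adjusted p = 0.0136 by limma), at means of 1.05 and 1.92 RPKM.

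Grin2d, low in excitatory neurons, was lower in the Fezf2 class (0.671 ± 0.325 RPKM, log2 difference -1.16, SE 0.20, adjusted p = 0.000616 by limma) and higher in the Tle4 class (2.15 ± 0.673 RPKM, 0.98, adjusted p = 0.00216 by limma). The summed inhibitory markers moved with the latter, at 0.955 to 5.65 RPKM in the Tle4 class against 0.142 to 3.16, 0.138 to 4.28 and 0.305 to 4.42 in the Cux2, Rorb and Fezf2 classes. They were highest in the Tle4 class in 6 of 6 pools, with all 3 markers above 0 in each class. Their part in the Grin2d result was not tested. Its calls in the Rorb class (log2 difference -0.61) and the Cux2 class (0.80) were lost without single pools, in 5 and in 3 of 6 runs, as well as when the leading marker had to be at least 2 times the next. In the Rorb class the 384-well WT pool had 2.93 RPKM and the other pools 0.443 to 1.16. The Gria4 calls in the Cux2 class (log2 difference 0.33) and the Fezf2 class (-0.32) were lost under the same marker rule, and that in the Fezf2 class also without the 384-well WT or the iTg CreER pool.

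Inhibitory nuclei were divided in the same way by Sst, Pvalb and Vip, which mark the main interneuron types, and the classes held 11 to 23, 12 to 24 and 5 to 11 nuclei per pool. The 96-well Ehmt1Δ/+ pool had 3 Vip nuclei and its Vip value was dropped, which left 17 values. Of all 10 members, 3 were called in the Sst class (background 3.04% of 26374 genes), 2 in the Pvalb class (background 5.39%) and 5 in the Vip class, 1 higher and 4 lower (background 12.9%, 3.76% higher and 9.1% lower). The median log2 difference of all genes was 0.11, 0.12 and -0.24 in these classes. The log2 differences below are as tested, before this is subtracted. Centring every value on the median of all genes was an alternative chosen after seeing the data. Limma then called 2, 2 and 4 members in the Sst, Pvalb and Vip classes, against 3.01%, 5.35% and 12.9% of all genes. The calls of Gria1 in the Sst class (adjusted p = 0.0607 by limma) and of Gria4 in the Vip class (adjusted p = 0.0666 by limma) were lost.

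Grin3a was the member most concentrated in the Sst class, with 23.1 to 44.4 RPKM (median 35.2) against 1.68 to 6.88 (median 4.70) in the Pvalb class and 0.635 to 22.9 (median 5.04) in the Vip class. All Sst pools lay above all pools of the other classes, and the log2 difference was 2.86 (adjusted p = 0.0132 by limma). The call was lost without the 384-well WT or the 384-well Ehmt1Δ/+ pool. Gria1 (131.3 ± 44.5 RPKM, log2 difference 0.87) and Grin2a (26.6 ± 5.18 RPKM, 0.91) were also called in the Sst class (adjusted p = 0.0474 and 0.0287 by limma), but these calls were lost in 5 and in 6 of 6 runs without single pools.

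In the Pvalb class, the fast-spiking interneurons, Grin2c had 0.213, 2.33, 4.53, 3.40, 3.62 and 0.508 RPKM in the 96-well WT, 96-well Ehmt1Δ/+, 384-well WT, 384-well Ehmt1Δ/+, iTg CreER and Δ/+ iTg CreER pools. The Sst pools were at 0 to 0.572 and the Vip pools at 0 to 0.488 RPKM, so 4 Pvalb pools lay above all others and 2 overlapped them. The log2 difference was 3.19 (adjusted p = 0.0329 by limma), and the call was lost in 4 of 6 runs without single pools and with a pseudocount of 0.01. Grin2c passed the filter on low values only through the Pvalb class, in which it is higher, so the call rests on that too. Gria4 was higher in the Pvalb class, at 48.3 ± 6.57 RPKM against 35.9 ± 7.90 in the Sst and 25.05 ± 3.20 in the Vip class (log2 difference 0.66, adjusted p = 0.0209 by limma), a call also lost in 4 of 6 such runs. In the 96-well Ehmt1Δ/+ pool the summed precursor markers Pdgfra, Cspg4, Vcan and Ptprz1 were 100.7 RPKM in the Pvalb class, against 2.70 to 11.1 in the other pools. Without that pool the Gria4 call held and the Grin2c call was lost.

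The Vip class had little Gria3 and Grin2a. Gria3 was 42.2, 4.30, 8.34, 3.33 and 16.4 RPKM in the 96-well WT, 384-well WT, 384-well Ehmt1Δ/+, iTg CreER and Δ/+ iTg CreER pools, against 49.6 to 64.4 in the Sst and 32.9 to 57.6 in the Pvalb class. The 96-well WT pool alone reached the range of the Pvalb class. The log2 difference was -2.38 (adjusted p = 0.00675 by limma). Grin2a was 5.58 to 12.4 RPKM (median 8.86) against 16.7 to 31.3 (Sst) and 17.1 to 24.9 (Pvalb), with no overlap and a log2 difference of -1.31 (adjusted p = 0.0025 by limma). Gria1 was 33.2 to 66.3 RPKM (median 42.1) against 93.3 to 213.5 and 80.2 to 127.2, also without overlap (log2 difference -1.29, adjusted p = 0.00415 by limma). These 3 calls held in every run without a single pool. Grin2d was higher in the Vip class, at 26.3 to 76.9 RPKM (median 41.6) against 13.3 to 40.1 and 11.9 to 31.5 (log2 difference 0.86, adjusted p = 0.0195 by limma), and Gria4 was lower (log2 difference -0.65, adjusted p = 0.016 by limma). Relative to the median of all genes these differences were 1.10 and -0.41, and both calls were lost in 3 of 6 such runs. The summed precursor markers moved with the Vip class, at 16.8 to 34.8 RPKM in its 5 pools against 4.34 to 9.74 in the Sst class and 2.70 to 11.1 in the Pvalb class outside the 96-well Ehmt1Δ/+ pool. Ptprz1 made up most of the sum (15.6 to 34.1 RPKM in the Vip class), while Pdgfra was at 0 to 1.23 RPKM and Cspg4 at 0 in 5 of 6 pools. Their part in the Vip results was not tested. With Gria3 at 6.96% ± 5.66 of the AMPA genes, Gria2 made up 52.7% ± 1.85 in the Vip class, and Grin2d made up 50.5% ± 16.1 of the GluN2 genes (SD, n = 5 pools, a description).

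**Figure D4:**
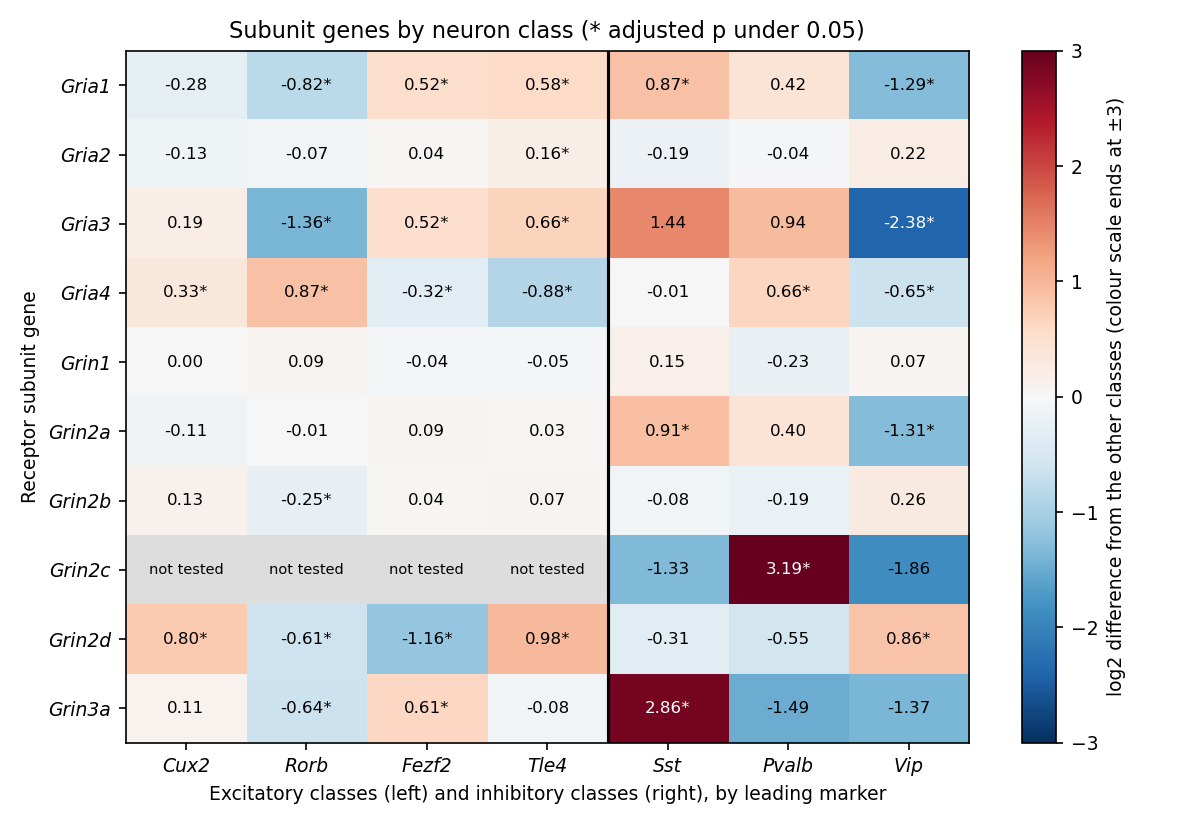
log2 difference of each subunit gene in each excitatory class (left of the line) and inhibitory class (right) from the mean of the other classes, not centred on all genes, with stars where the adjusted p was under 0.05 and grey where the gene was not tested. The AMPA genes split in the Rorb and Tle4 columns, with Gria3 at -1.36 and Gria4 at 0.87 in the Rorb class.

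Within excitatory nuclei of 1 pool, Gria1 and Gria3 varied together (Pearson r of log2 values over nuclei, median of 6 pools 0.414, range 0.333 to 0.448), as did Gria1 and Grin2b (0.384, 0.343 to 0.425). Gria4 varied against Gria1 (-0.459, -0.486 to -0.325) and against Gria3 (-0.366, -0.480 to -0.260). Grin2a and Grin2d also varied against each other (-0.414, -0.466 to -0.265). In inhibitory nuclei Gria4 and Grin2d varied together (0.381, 0.359 to 0.645). Nuclei of a pool share libraries and depth, so these are descriptions.

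Relative to neurons, glia held little of most members, and Gria4 and Grin3a in oligodendrocytes were the exceptions. Gria4 had 9.20, 10.6, 4.60, 11.96, 3.65 and 6.52 RPKM in the 96-well WT, 96-well Ehmt1Δ/+, 384-well WT, 384-well Ehmt1Δ/+, iTg CreER and Δ/+ iTg CreER pools, a median of 25.4% of the neuronal level of the same pool (range 12.05% to 46.1%). It was above 0 in 29.6% to 78.9% of oligodendrocyte nuclei, and in 27.4% to 64.4% after each nucleus was thinned to 40000 reads. For comparison, Slc17a7 in the same nuclei was at a median of 2.23%, Gad1 at 5.35%, Syt1 at 3.78% and Snap25 at 5.41% of the neuronal level, the last reaching 31.7% in the 96-well WT pool, whose summed neuron markers (Snap25, Syt1 and Rbfox3) were 50.7 RPKM against 2.36 to 12.2 in the others. Precursor markers summed to 0.452 to 1.65 RPKM and no oligodendrocyte nucleus had more Pdgfra and Cspg4 than Mog and Mag, genes of mature oligodendrocytes. Gria4 made up 50.1% ± 8.35 and Gria2 40.03% ± 11.4 of the AMPA genes in oligodendrocytes. Gria2 itself was at a median of 5.91% of the neuronal level (range 3.36% to 10.5%). Grin3a was at 22.7% (6.05% to 56.1%) in oligodendrocytes and 10.1% (0% to 21.4%) in microglia, from a low neuronal level of 4.19 RPKM. Its mean in oligodendrocytes was 1.08 RPKM, near Gria1 (1.01) and below Gria2 (6.38). As a percent of neurons, Gria4, Gria2 and Grin3a in oligodendrocytes were higher in the pool labelled Ehmt1Δ/+ of every pair of pools. The other members held no single direction or, for Grin2c, were at 0. A genotype difference in glia was not tested. Grin2c was at 0 in every oligodendrocyte pool, for example in 0 of 46 nuclei, which allows a share of up to 6.52%, and in 0 of 73, which allows up to 4.11%. These limits cover counting error only and bear on nuclei with a read, not on nuclei that express the gene. Since the study's cell types came from clustering all genes, neurons and glia were not tested against each other.

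The genotype comparison asks whether loss of 1 Ehmt1 allele changed these genes. In all neurons, 0 of the 9 members tested were called between the 2 pools labelled Ehmt1Δ/+ and the 2 WT pools without CamKII-CreER (limma with plate format, background 0% of 25454 genes). At unadjusted p under 0.05 there were 2 members by limma, and 9.41% of all genes. Limma with a trend also called 0. The fit had 1 residual degree of freedom and called none of the changes planted in simulated data of this design, at any size tried, so a count of 0 does not show that the levels were alike. Pool means over all neurons also cannot tell fewer cells of a type from less RNA per cell.

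The members past the unadjusted threshold were Grin3a and Grin2d. Grin3a had 7.37 RPKM in the WT and 4.93 in the Ehmt1Δ/+ 96-well pool, 3.498 and 2.47 in the corresponding 384-well pools, and 3.29 and 3.61 in the iTg CreER and Δ/+ iTg CreER pools. The pools labelled Ehmt1Δ/+ were lower in both plate formats without CamKII-CreER and higher with it. The log2 difference was -0.53 (SE 0.11, limma p = 0.0112, adjusted p = 0.521), at -0.57 and -0.49 in the separate formats and 0.13 between the CreER pools. Grin2d had 4.42 and 3.61, 10.5 and 6.21, and 8.34 and 6.24 RPKM in the same pairs and was lower in the labelled Ehmt1Δ/+ pool each time (log2 difference -0.52, SE 0.16, limma p = 0.0411, adjusted p = 0.521). The share of neurons that were inhibitory moved with these values, at 24.5% and 16.2% in the 96-well and 25.6% and 16.99% in the 384-well WT and Ehmt1Δ/+ pools and 19.3% and 17.9% in the CreER pools. Its part in the result was not tested. Within inhibitory neurons the log2 differences were -0.04 for Grin3a and -0.09 for Grin2d. The titles of nuclei carry codes whose meaning is not given, and 3 codes occur in both 96-well pools (60 to 71 neurons per code and pool). Within them the log2 difference in neurons was -1.22, -1.51 and 0.26 for Grin3a and 0.16, -0.85 and 0.34 for Grin2d, so neither gene was lower in the Ehmt1Δ/+ pool under every code.

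In excitatory neurons Grin3a had a log2 difference of -0.51 (limma p = 0.0216, adjusted p = 0.577), at -0.62 and -0.39 in the separate formats, at -0.95, -0.66 and -0.59 within the shared codes and at 0.06 between the CreER pools, and it was -0.41 in nuclei with Slc17a7 at least 4 times Gad1. The 96-well WT pool, highest for Grin3a in excitatory neurons with 2.98 RPKM, also had the most inhibitory marker RNA there, as given above. In inhibitory neurons Grin2c had 1.34 and 0.727, 1.5004 and 0.898, and 1.37 and 1.53 RPKM in the 3 pairs (log2 difference -0.74, SE 0.20, limma p = 0.0320, adjusted p = 0.900). The background in these fits was 0% of 25308 and 0% of 25043 genes, with 8.36% and 5.28% of genes and 1 of 9 and 1 of 10 members at an unadjusted limma p under 0.05. The other 7 members tested in all neurons had log2 differences between -0.14 and 0.15.

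**Figure D5:**
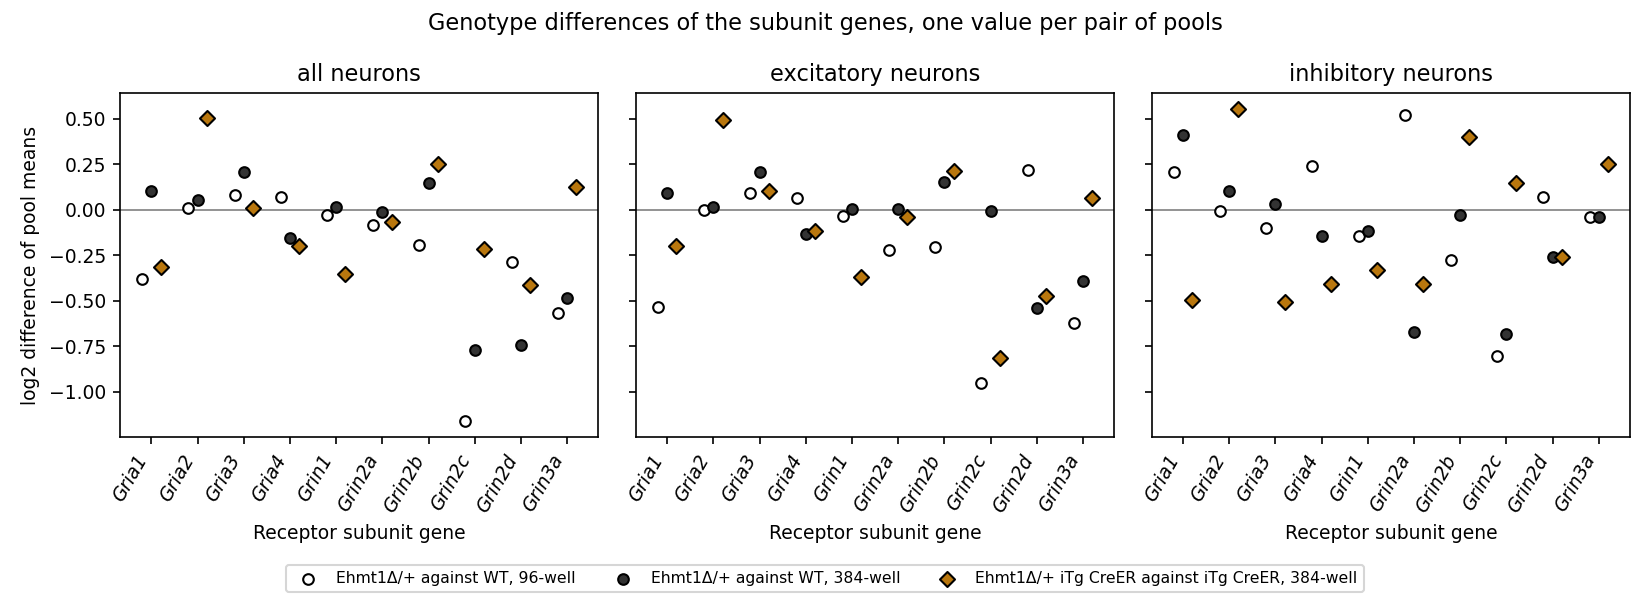
log2 difference of pool means between a pool labelled Ehmt1Δ/+ and its partner, for each subunit gene in all neurons, excitatory neurons and inhibitory neurons, with 1 point for each of the 3 pairs of pools (96-well, 384-well and 384-well with CamKII-CreER). In all neurons Grin3a is at -0.57, -0.49 and 0.13.

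Whether the genotype difference itself differed between excitatory and inhibitory neurons was tested as an interaction, and 0 of 10 members and 0 of 26540 genes were called (0% background, 5.17% of genes and 0 members at unadjusted p under 0.05 by limma). This fit too called none of the changes planted in simulated data. The smallest member value was that of Gria1 (log2 difference of differences -0.53, limma p = 0.0709, adjusted p = 0.979). Between pools with and without CamKII-CreER, 0 of 9 members were called in all neurons or in excitatory neurons (0% of 24413 and of 24352 genes), 0 members were past an unadjusted p of 0.05 by limma, and 2.91% and 3.34% of all genes were. The largest member difference in all neurons was 0.22 for Grin3a, with an SE of 0.23. This comparison rests on the CamKII-CreER status given by the labels and shares its 4 pools without the transgene with the genotype comparison. In the Δ/+ iTg CreER pool Gria2 was 113.9 RPKM in excitatory neurons and Grin1 101.7, whereas the other 384-well pools had 80.8 to 85.996 and 126.002 to 131.5.

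Genes that act with these receptors were also compared between the neuron classes. Of 18 AMPA auxiliary subunit and assembly genes, 9 were higher in excitatory neurons, 6 were lower and 3 did not pass, with a median log2 difference of 0.21. The share that passed was 83.3%, against 40.5% of all genes and a median of -0.02. Olfm1, a secreted binding partner of AMPA receptors, was 52.2 against 16.1 RPKM (log2 difference 1.69, adjusted p = 2.80e-05 by limma) and the cornichon gene Cnih3 was 20.5 against 6.52 (1.67, adjusted p = 9.08e-05 by limma). The TARP genes Cacng4 (0.898 against 6.69 RPKM, -2.76, adjusted p = 0.000770 by limma) and Cacng5 (1.40 against 6.23, -2.04, adjusted p = 0.000201 by limma) were lower. TARPs are transmembrane partners that set the traffic and gating of AMPA receptors.

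Of 33 postsynaptic scaffold and trafficking genes, 17 were higher, 11 lower and 5 did not pass (median 0.29), so that 84.8% passed against 40.5% of all genes. The pentraxins Nptx1 (42.1 against 2.84 RPKM, log2 difference 4.10, adjusted p = 0.000128 by limma) and Nptx2 (8.80 against 1.91, 2.48, adjusted p = 0.00213 by limma), which are secreted and cluster AMPA receptors, were higher in excitatory neurons. The scaffold genes Grip1 (5.56 against 32.8 RPKM, -2.53, adjusted p = 1.17e-05 by limma) and Grip2 (14.8 against 46.9, -1.71, adjusted p = 6.34e-05 by limma), whose products bind the tails of GluA2 and GluA3, were lower.

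Of the other 8 ionotropic glutamate receptor genes (kainate, delta and Grin3b), 2 were higher, 3 lower and 3 did not pass (median -0.17). This is 62.5% of a short list, against 40.5% of all genes. Grik1 (8.71 against 52.8 RPKM, log2 difference -2.64, adjusted p = 2.40e-05 by limma) and Grik2 (16.4 against 43.2, -1.35, adjusted p = 0.000148 by limma) were lower in excitatory neurons, and Grik4 (0.52) and Grik5 (0.28) were higher. Of 6 metabotropic receptor genes tested of 7, 4 were higher, 1 lower and 1 did not pass (median 0.57), with the same background of 40.5%. Grm2 (11.5 against 1.41 RPKM, 3.00, adjusted p = 3.57e-05 by limma) and Grm3 (25.2 against 8.69, 1.57, adjusted p = 0.000220 by limma), autoreceptor genes, were higher, and Grm5 (34.5 against 44.1, -0.36), whose product couples to phospholipase C, was lower. In the Rorb class against the other excitatory classes, 4 auxiliary genes were higher and 7 lower of 18, and 8 scaffold genes were higher and 14 lower of 33. Of the 8 other ionotropic genes 5 were lower and 0 higher. The metabotropic genes went the other way, with 4 higher and 1 lower of 6 tested. The background was 23.2% of genes called (11.1% higher and 12.1% lower). No gene of these lists was called by limma in the genotype, interaction or CamKII-CreER fits, where 0% of all genes were.

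The genes whose pattern was most like each member over 53 class and pool means are given by Pearson r of log2(RPKM + 0.1), as a description, since the points share pools and include glia. For Gria1 they were Dlgap2 (0.967), Tmem179 (0.965) and the TARP gene Cacng8 (0.964). For Gria2 they were Adgrb3 (0.980), Pcdha11 (0.977) and Pcdhac1 (0.973). For Gria3 they were the NMDA gene Grin2a (0.965), Trim9 (0.960) and Kif17 (0.956), a kinesin gene. Gria4 was most like Tmem25 (0.953), Cacna1c (0.949) and Ggt7 (0.948). Grin1 was most like Vwa5b2 (0.986), Rtl1 (0.984) and Ccdc30 (0.982), and Grin2a was most like Mical2 (0.982) and Trim9 (0.977). Grin2b was most like Ptprn2 (0.974), Ica1 (0.972) and Ntrk2 (0.971). Values were lower for Grin2c, with Adamts15 (0.763), Frmpd1 (0.741) and Pvalb (0.725), the calcium buffer gene that also defined a class. Grin2d was most like Nhs (0.948), Prrt4 (0.946) and Trim67 (0.937). Grin3a was most like Ppp3r2 (0.915), which lies within it on the same strand so that their values may not be independent, and Reln (0.833) and Apc (0.807).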

How the data were processed

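The authors trimmed the reads, aligned them with HISAT2 2.0.4 to mm10 and counted them per gene over the Gencode mouse annotation with featureCounts (Subread 1.5.0, default settings, without strand), and they deposited RPKM values in 1 table per plate format. Every column was matched to a sample by its title, and groups came from the labels. Gene symbols were taken from GENCODE M21.

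RPKM was averaged over the nuclei of each class and pool, and log2(mean + 0.1) was tested with limma 3.58.1 (R 4.3.3) over all genes detected in 10% or more of a class's nuclei in 50% or more of the pools, with Benjamini-Hochberg adjustment and a threshold of 0.05. Class fits had the pool as a block, and genotype fits had plate format as a term. Exact permutation tests flipped signs over the 6 pools (SciPy 1.17.1, Python 3.11.15). Each fit was tested on simulated data, on which the genotype and interaction fits called none of the planted changes and the CamKII-CreER fits only some of the largest. The study calculated differential expression with edgeR and does not state the unit of replication. Nuclei were not treated as replicates here. Read totals were estimated from the smallest steps of RPKM, and the share intervals and limits of 3 counts cover counting error only.

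Members and gene lists were chosen with earlier results of these data known. The named genes are the 10 members, the 3 genes most alike to each among those of at least 1 RPKM with a symbol of their own, and the 2 largest called changes in each direction of each list between excitatory and inhibitory neurons. Alternatives were another pseudocount (1 or 0.01), no filter, each pool left out, means weighted by reads, stricter class markers (4 times) or leading markers (2 times), all 6 pools for genotype, limma with a trend and each plate format alone. The last pair were added after seeing the data, as was centring interneuron values on the median of all genes. Some genes of these lists are not reported here.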

Additional observations from a re-analysis of the deposited data

Results flagged for a closer look

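All flagged values concern glia, each being 1 pool far from the other 5 in the level of a member as a percent of the neuronal level of the same pool. Of 38 groups of pool values examined, 5 were flagged, and chance flags about 1 in 20. The 38 also took in the excitatory minus inhibitory differences of members and of shares, none of which was flagged. Flags were therefore more frequent among the glial groups than among all 38.

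Grin2c in microglia was at 105.1% of the neuronal level in the 96-well Ehmt1Δ/+ pool and at 0 in the others. The value there was 0.148 RPKM, from 3 of 32 nuclei. Grin3a in oligodendrocytes was at 56.1% in the same pool, against 6.05% to 24.4% in the others. Grin2b in oligodendrocytes was at 4.81% in the 96-well WT pool, against 1.79% to 2.55%, and that pool also had the most Snap25 in its oligodendrocytes (31.7% of the neuronal level). In microglia Grin2b was at 12.2% in the 384-well WT pool, against 0.221% to 4.4995%, and Gria4 was at 4.15% in the iTg CreER pool, against 0% to 1.12%. The 384-well pools had 16 to 23 microglia each. The cause was not tested in any of these.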

How the results depend on the processing

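No paired analysis was possible because the labels give no replicate number that ties a nucleus to a mouse, and only classes of 1 pool were compared with the pool as a block. Codes in the titles are shared, 3 by both 96-well pools and 1 by 3 of the 384-well pools, but 82 to 92 of the 95 well names under each shared 96-well code recur in both pools, so a code is not 1 plate. Of the 10 members called between excitatory and inhibitory neurons, 6 were called in the 384-well pools alone and 0 in the 96-well pools alone. In the 96-well pools alone 0% of genes were called against 40.5% in all 6 pools, with fewer pools in the fit. The share of all genes called in the 384-well pools alone is not reported here, so that count of members has no background beside it. Leaving out single pools left 7 to 10 members and 34.5% to 36.8% of genes. In the Cux2 class the 2 called members became 6 with a limma trend, where 15.9% of genes were called instead of 15%, and 1 when the leading marker was at least 2 times the next, where 9.33% of genes were called, and 1 to 2 without single pools. In the Pvalb class the 2 members became 1 with a pseudocount of 0.01 and 0 to 2 without single pools (2.12% to 4.27% of genes instead of 5.39%). Without single pools the Sst class kept 0 to 2 of 3 members (1.09% to 2.49% of genes instead of 3.04%) and the Vip class 3 to 5 of 5 (7.09% to 11.4% of genes instead of 12.9%). With no filter, which adds undetected genes to those tested, 24.01% of genes were called between excitatory and inhibitory neurons, 8.38%, 13.1%, 8.93% and 10.5% in the Cux2, Rorb, Fezf2 and Tle4 classes, and 1.60%, 3.01% and 7.30% in the Sst, Pvalb and Vip classes. The cause of the other changes was not tested. Among genotype differences, none of them called, Grin2b in neurons turned to 0.067 with all 6 pools, Grin3a in inhibitory neurons to 0.057 with all 6 pools and Grin2d in excitatory neurons to 0.093 with stricter class markers. Of the 14 genotype differences followed, 7 took both signs over all runs, the widest being Grin2d in excitatory neurons (-0.54 to 0.22), Gria1 in neurons (-0.38 to 0.10), Grin2b in neurons (-0.20 to 0.15) and Grin2d in inhibitory neurons (-0.26 to 0.07). Over all values of single members and shares, 566 runs were counted as unchanged and 71 lost a call. A further 16, which give no test, moved by more than 1 SE. The 566 are not a count of runs that kept direction and call. Share runs were counted by direction, without following their p-values, and genotype differences had no call to lose. Genotype runs without a test could count as unchanged with the sign turned. Gria4 in neurons, at -0.16 to 0.07, was counted as unchanged in 10 of 10 runs. The 8 share differences kept their direction in every run. Few inhibitory nuclei per pool and the shallow 384-well glia limit what could be detected.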
